A study of Mus musculus with 24 samples.

Results

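Hindlimb buds of U11 mutant embryos were compared between 2 stages of mouse development, E10.5 and E11.5, to see how gene expression moved over that interval when the U11 small nuclear RNA had been deleted from limb mesenchyme. The comparison takes 3 libraries of E11.5 mutant hindlimb against 3 libraries of E10.5 mutant hindlimb, which are 6 of the 24 libraries of the series. The other libraries are wild-type and mutant forelimb and wild-type hindlimb, in groups of 3. All animals are C57/Bl6 and carry the U11flx/flx allele. Mutants are Prrx1-Cre+ and wild types are Prrx1-Cre-, so the controls hold the floxed allele as well. Cre under the Prrx1 promoter acts in limb bud mesenchyme. Surface ectoderm, vessels, blood, nerve and incoming muscle precursors of the same bud are not its main target, and a bulk library mixes all of them. Total RNA was sequenced from dissected buds on a NextSeq500 after a TruSeq stranded total RNA preparation. The labels number the libraries 1 to 3 and do not say which embryos or how many buds went into each, so the p-values measure the spread between these libraries. Per the labels the E10.5 reads were shortened by 3 nt, and no trimming is named for E11.5. Stage and read handling therefore cannot be told apart in any change from E10.5 to E11.5 that follows.

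U11 is the RNA of the particle that recognises the start of minor introns, a rare class of introns found in a small share of genes and removed by a separate spliceosome. Between these stages the bud grows outward under signals from the apical ectodermal ridge and the posterior Shh-producing mesenchyme. The digit plate is laid out at its distal end, and the first cartilage condensations and connective tissue form at its core. Late HoxA and HoxD genes mark distal cells, whereas retinoic acid signalling and Meis genes mark proximal cells.

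U11 itself was read first, because it is the deleted gene. The mouse U11 gene, Rnu11, lies on chromosome 4 at 132270080 to 132270213, minus strand (GRCm38, the assembly that mm10 stands for), and is annotated as a 134 nt small nuclear RNA. Its sequence is printed here because the design turns on it. Capitals mark ATTTTTTG, the letters of its single match to the kind of site that Sm proteins bind.
Rnu11: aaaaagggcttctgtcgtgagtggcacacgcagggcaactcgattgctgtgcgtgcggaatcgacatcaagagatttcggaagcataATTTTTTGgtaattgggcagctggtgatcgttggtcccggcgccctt

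In E10.5 mutant hindlimb Rnu11 stood at 164, 178 and 267 TPM in replicates 1 to 3. TPM is a share of all transcripts, scaled to the same total in each library, and here every library was rescaled so that genes at 5 TPM or more in all 24 libraries share 1 median. At E11.5 the 3 mutant libraries read 414, 420 and 337 TPM, all above the E10.5 libraries. The ratio of the means was 1.92, and the exact two-sided permutation test gave p = 0.1, the smallest that 3 against 3 libraries allow. The fit across all genes did not call it either, with a log2(TPM + 1) difference of 0.97 ± 0.49 (SE) and an adjusted p of 0.131. On the deposited scale the ratio was 1.08 (exact permutation p = 0.3), so this difference rests on the rescaling. Wild-type hindlimb held 565 ± 145 TPM at E10.5 and 1544 ± 586 TPM at E11.5 (SD, n = 3 each). The mutant mean was thus 35.9% of wild type at E10.5 and 25.3% at E11.5. At each stage the exact permutation test between genotypes gave p = 0.1, again the smallest possible. The wild-type rise passed in the fit across all genes (adjusted p = 0.0296). The genotype difference of the Rnu11 stage change in that fit was -0.435 ± 0.700 (SE, unadjusted p = 0.541) and did not pass. The 2 percentages therefore do not show that the loss of U11 deepened with stage. U12, the partner of U11 in the same particle, was listed at 131, 152 and 249 TPM at E10.5 and at 20.6, 45.8 and 9.02 TPM at E11.5. In wild-type hindlimb U12 went from 317 ± 91.2 to 31.7 ± 6.27 TPM (SD, n = 3 each). The fitted change of Rnu12 was -2.99 ± 0.54 in the mutant and -3.26 in wild type.

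For some multicopy RNAs the copies of a gene moved in opposite directions between the stages. The U1 genes Rnu1b1 and Rnu1b2 have the same annotated sequence over their 165 nt, with 0 mismatches. Rnu1b6 differs from both by 2 mismatches and 1 inserted base. The 3 are shown because their bases set what a short read can tell apart, with capitals at the positions where copies differ.
Rnu1b1: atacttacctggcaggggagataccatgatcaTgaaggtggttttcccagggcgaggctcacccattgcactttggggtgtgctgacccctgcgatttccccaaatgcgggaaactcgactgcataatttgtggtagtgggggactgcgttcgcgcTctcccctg
Rnu1b2: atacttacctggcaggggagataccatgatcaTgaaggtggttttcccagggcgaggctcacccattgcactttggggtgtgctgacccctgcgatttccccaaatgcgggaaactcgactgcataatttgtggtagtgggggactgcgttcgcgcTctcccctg
Rnu1b6: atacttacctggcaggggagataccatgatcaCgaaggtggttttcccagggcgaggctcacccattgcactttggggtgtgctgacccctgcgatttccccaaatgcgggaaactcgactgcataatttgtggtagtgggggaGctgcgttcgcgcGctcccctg

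Rnu1b1 was listed at 795, 3063 and 5416 TPM at E10.5 and at 45990, 44236 and 41080 TPM at E11.5. Rnu1b2, with identical bases, went the other way, from 5166, 1917 and 1204 TPM to 5.73, 21.3 and 10.3 TPM. Their sum was 5854 ± 826 TPM at E10.5 and 43781 ± 2487 TPM at E11.5 (SD, n = 3 each). The 7SL RNA genes Rn7s1 and Rn7s2, also without a mismatch over 300 nt, split in the same manner. Rn7s1 went from a mean of 128257 to 12120 TPM while Rn7s2 went from 70995 to 388458 TPM. The sum of the 7SL pair was 199252 ± 78948 TPM at E10.5 and 400579 ± 57849 TPM at E11.5 (SD, n = 3 each). Wild-type hindlimb showed the same exchange in both pairs. A value for 1 copy of such a gene is therefore uncertain. Rnu1b6 was at 9865, 38.6 and 47.3 TPM at E10.5 and at 24911, 13402 and 73745 TPM at E11.5 in the mutant, higher as Rnu1b1 was.

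**Figure D1:**
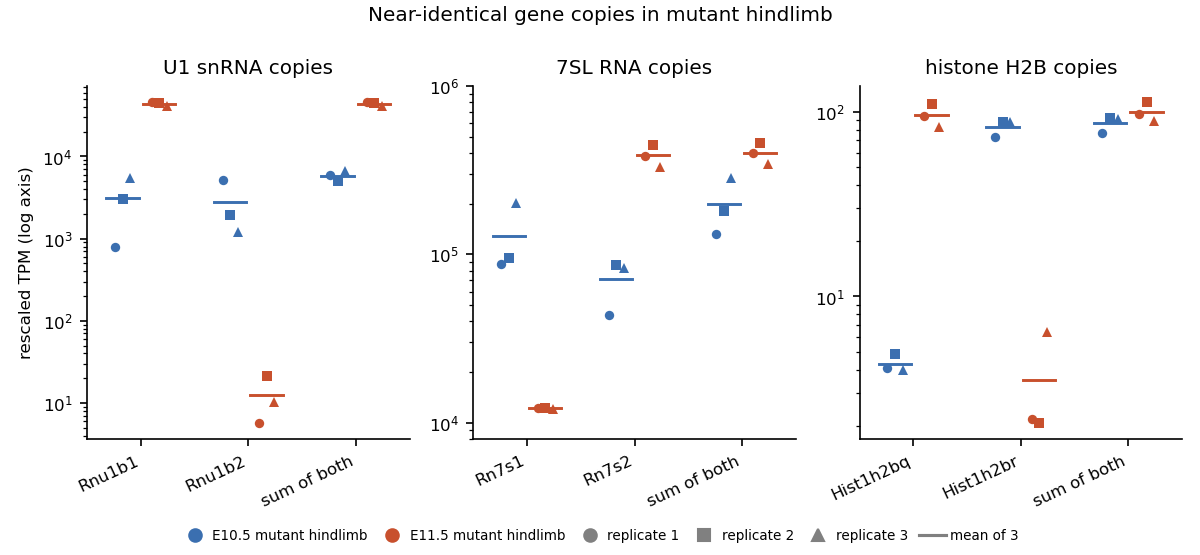
Rescaled TPM on a log axis for 2 copies of U1 snRNA, 7SL RNA and histone H2B and for their sum, in 3 E10.5 (blue) and 3 E11.5 (red) mutant hindlimb libraries; symbols are replicates and lines are means. Single copies move in opposite directions. The summed H2B pair reads 87.2 TPM at E10.5 and 99.7 TPM at E11.5. The summed U1 pair reads 5854 and 43781 TPM, and the summed 7SL pair 199252 and 400579 TPM.

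The mutant libraries also differed in what filled them. Nuclear protein-coding genes took between 19.4% and 32.8% of the TPM in the E10.5 libraries and between 14.6% and 16.96% in the E11.5 libraries. The number of protein-coding genes above 0 lay between 14681 and 15367 in the former and between 17081 and 18630 in the latter. TPM keeps no read depth, so the depth is unknown. Correlations between replicates were 0.953 to 0.977 on the log2 scale. Xist was at 5 TPM or more in 2 of 3 E10.5 and 1 of 3 E11.5 libraries. The 2 libraries numbered 3 stood apart from their groups. Over the genes called without it, the third E11.5 library had made a median of 70.4% of the change that separates its 2 companions from E10.5. For the third E10.5 library the figure, counted back from E11.5, was 68.7%. Counts are given with and without the third E11.5 library below where this matters. Prrx1, the gene whose promoter drives Cre and a marker of limb mesenchyme, was at 34.1, 28.8 and 29.1 TPM and then at 55.4, 49.1 and 37.8 TPM. Its difference of 0.60 ± 0.27 on the log2(TPM + 1) scale did not pass (adjusted p = 0.0906).

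Among 10570 protein-coding genes tested, 1999 were higher and 1941 lower at E11.5 at an adjusted p under 0.05 in the limma fit. That is 37.3% of those tested, with 18.9% higher and 18.4% lower, and these shares are the background for every gene group that follows. Among 1548 other genes tested, 242 were higher and 212 lower. Over all 12118 genes the share called was 36.3%. In 54.1% of the protein-coding genes the 3 E11.5 values did not overlap the 3 E10.5 values. Of the 3940 called genes 3762 did not overlap, so non-overlap adds little to a call. The largest rises and falls named below were chosen by that rule. Changes were mostly modest. In all, 151 genes rose and 92 fell by 1 or more on the log2(TPM + 1) scale, a scale that understates changes of low genes. Without the third E11.5 library 1943 were higher and 1881 lower. Without the second E11.5 library 1234 were higher and 1311 lower, and without the second E10.5 library 1320 and 1519. When protein-coding genes were instead summed anew to the same total per library, 1477 were higher and 2158 lower, a share of higher calls of 40.6% against 50.7%. On the deposited scale the median protein-coding gene fell by 0.63, and 96 genes were higher against 5601 lower. All directions given here are therefore relative to the median gene.

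By fitted change the 2 histone genes Hist1h2bq and Hist2h2aa2 came first among the rises, and their values, given below, are uncertain because copies share their bases. The next was Lum at 2.85. Lum, which encodes the collagen-binding proteoglycan lumican, was at 0.150, 0.101 and 0.227 TPM at E10.5 and at 4.74, 4.17 and 18.5 TPM at E11.5, a log2(TPM + 1) difference of 2.85 ± 0.54. The third E11.5 library was the highest by far. The basal keratins Krt14 and Krt5 rose together. Krt14 went from 0.753, 0.540 and 1.28 TPM to 17.3, 20.4 and 4.81 TPM, and Krt5 from 2.93 ± 1.52 to 14.9 ± 5.46 TPM (SD, n = 3 each). For Krt14 the third E11.5 library was the lowest of its group. Mab21l2, a gene of limb and eye development, rose from 0.967, 1.04 and 2.10 TPM to 16.6, 16.7 and 12.8 TPM. The E11.5 libraries agree closely for it, and the difference was 2.81 ± 0.37 (adjusted p = 3.52e-05). The gap junction gene Gjb2, the chemokine Cxcl14 and the guidance receptor Robo2 also rose, by 2.33, 2.30 and 2.27 on that scale. Tmsb15l, from the thymosin family of actin-binding peptides, was called with 2.31, but 65.3% of its 50-mers occur in transcripts of other genes.

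Among the largest falls was Lin28a. Lin28a, an RNA-binding protein that blocks maturation of let-7 microRNAs in early embryonic tissue, stood at 31.6, 23.7 and 21.4 TPM at E10.5. At E11.5 it was at 2.22, 2.16 and 7.40 TPM, a change of -2.58 ± 0.36 (adjusted p = 5.13e-05). Aldh1a2, which makes retinoic acid, fell from 8.19, 7.80 and 14.7 TPM to 0.679, 0.514 and 2.45 TPM. In both genes the third E11.5 library kept the highest value of its group. Igdcc3 fell from 17.8 ± 2.44 to 4.75 ± 3.74 TPM, and Crym, which encodes the thyroid hormone-binding protein mu-crystallin, from 5.33 ± 2.21 to 0.905 ± 0.563 TPM (SD, n = 3 each). The imprinted Notch-like ligand Dlk1 dropped from 27.2, 20.5 and 27.4 TPM to 4.56, 3.81 and 20.002 TPM, and the third E11.5 library lay just under the E10.5 values.

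Other genes with large changes are less certain. Hist1h2bq and Hist1h2br encode H2B histones, and 97.8% and 88.6% of their 50-mers are shared with other genes. One rose from 4.33 to 96.2 TPM and the other fell from 82.8 to 3.55 TPM, while their sum was 87.2 ± 8.99 TPM at E10.5 and 99.7 ± 12.2 TPM at E11.5 (SD, n = 3 each). Hist2h2aa2, with all its 50-mers shared, was also among the rises, and with its copy Hist2h2aa1 the sum was 655 and 895 TPM. Hist1h2ao, at 94.1% shared, was among the falls. Lars2, a mitochondrial leucyl-tRNA synthetase gene, was at 174, 27.4 and 3778 TPM at E10.5 against 1.96, 3.45 and 7.62 TPM at E11.5. Its E10.5 mutant libraries thus differ widely among themselves. In wild-type hindlimb Lars2 fell as well, from 5489 ± 111 to 2.16 ± 0.88 TPM (SD, n = 3 each). The genotype difference of its stage change was 5.02 (unadjusted p = 0.0272 in the limma fit) and did not pass. Rpl27a, a ribosomal protein gene, fell from 148 ± 13.8 to 44.8 ± 1.90 TPM (SD, n = 3 each), with 19.4% of its 50-mers shared. In all, 677 of the protein-coding genes tested had 20% or more of their 50-mers in other genes' transcripts, and without them 3684 genes were called.

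**Figure D2:**
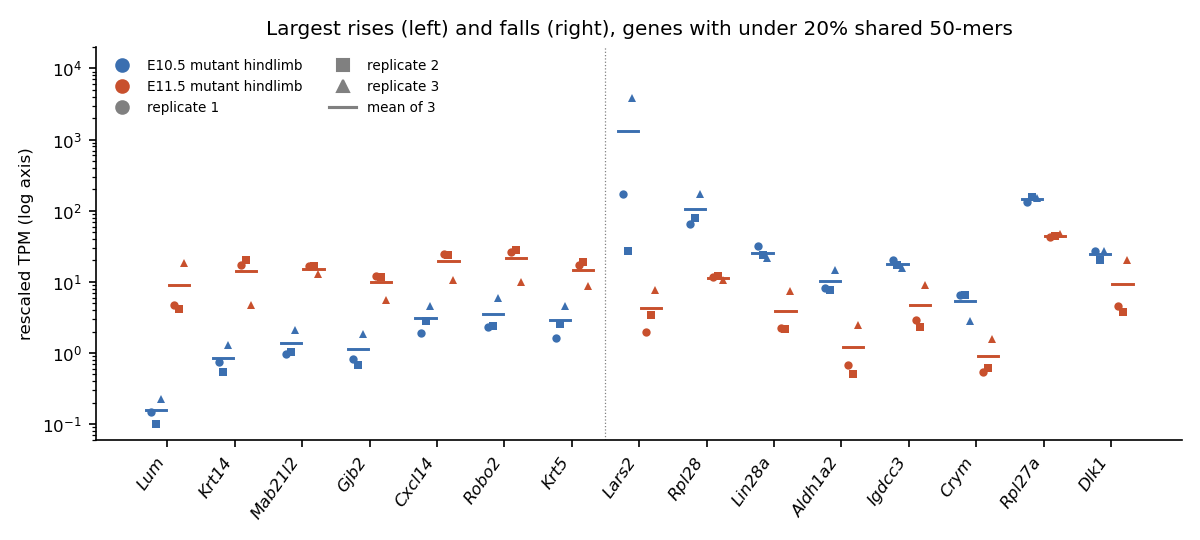
Rescaled TPM on a log axis in each mutant hindlimb library for the named genes with the largest rises (left of the dotted line) and falls (right) that share under 20% of 50-mers with other genes; blue is E10.5, red E11.5, symbols are replicates, lines are means. The E10.5 and E11.5 points of each gene do not overlap because the genes were chosen by that rule. The third E11.5 library often lies nearer to E10.5, as in Dlk1 at 20.002 TPM.

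In the limb-identity list, which holds the forelimb gene Tbx5 besides hindlimb genes, 0 of 7 tested rose and 1 fell. The median change was -0.33 against 0.03 over all protein-coding genes. Without both libraries numbered 3, 1 member rose and 1 fell. Pitx1, the gene that sets hindlimb identity, was at 10.03, 8.38 and 13.4 TPM and then at 22.5, 17.4 and 14.0 TPM, which did not pass (adjusted p = 0.0789). Its rise in wild-type hindlimb, by 1.05, did pass (adjusted p = 0.011). Tbx4, its hindlimb T-box partner, was at 7.82 ± 1.29 and 6.05 ± 1.29 TPM in the mutant (SD, n = 3 each). Tbx5, the forelimb counterpart, was under 0.38 TPM in all 6 libraries. Isl1, needed to start the hindlimb bud, was at 5.52, 3.73 and 13.0 TPM and then at 2.83, 3.06 and 3.99 TPM, where the third E10.5 library was the highest. Hoxc9 was the member that fell, from 1.39, 1.74 and 1.49 TPM to 0.798, 0.717 and 1.01 TPM, and its call was lost without the second E11.5 library (adjusted p = 0.0948). Hoxc10 and Hoxc11 differed by -0.42 ± 0.35 and 0.10 ± 0.29 and did not pass. In the limb mesenchyme marker list, which also holds Pitx1, Tbx4 and the forelimb gene Tbx5, 0 of 7 rose and 2 fell. These were Twist1 and Lhx2, whose values follow below. Without both libraries numbered 3, 1 member of that list rose and 2 fell.

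Among 9 posterior HoxA and HoxD genes, 3 rose and 2 fell, with a median change of 0.37. The 3 that rose lie in the HoxA cluster and the 2 that fell in HoxD. Hoxa13, the HoxA gene of the digit region, was at 1.04, 1.34 and 2.71 TPM at E10.5 and at 13.6, 13.6 and 3.17 TPM at E11.5. The third E11.5 library lies just above the E10.5 range, and the change was 1.89 ± 0.61 (adjusted p = 0.0221). Without that library it was 2.49, and without the second E11.5 library the call was lost (adjusted p = 0.0997). Hoxa10 rose from 20.8 ± 3.26 to 32.9 ± 6.70 TPM and Hoxa9 from 19.5 ± 0.42 to 25.6 ± 3.39 TPM (SD, n = 3 each), while Hoxa11 differed by 0.28 ± 0.19 and did not pass. Hoxd13 showed the same outlying library as Hoxa13, with 2.34, 1.83 and 4.26 TPM at E10.5 and 7.74, 7.86 and 2.09 TPM at E11.5. Its change of 0.76 ± 0.49 did not pass (adjusted p = 0.231), nor did that of Hoxd12, at 0.88 ± 0.43. Without the third E11.5 library 4 members rose, Hoxd12 among them (1.33, adjusted p = 0.024), and for Hoxd13 the adjusted p was 0.0557. Without both libraries numbered 3, 5 members rose and 2 fell. The calls of Hoxa9 and Hoxd9 were lost without the second E11.5 library (adjusted p = 0.144 and 0.0848). Hoxd9 and Hoxd10 fell, by 0.68 and 0.67. Hoxd11 was at 5.52 ± 0.51 and 4.87 ± 1.61 TPM (SD, n = 3 each). Of 8 tested anterior HoxA and HoxD genes, 0 rose and 2 fell: Hoxd4, from 8.25, 6.14 and 4.71 TPM to 1.69, 1.54 and 2.25 TPM, and its neighbour Hoxd8, by 1.11. Of the Hoxd4 50-mers, 47.8% are also in transcripts of other genes.

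**Figure D3:**
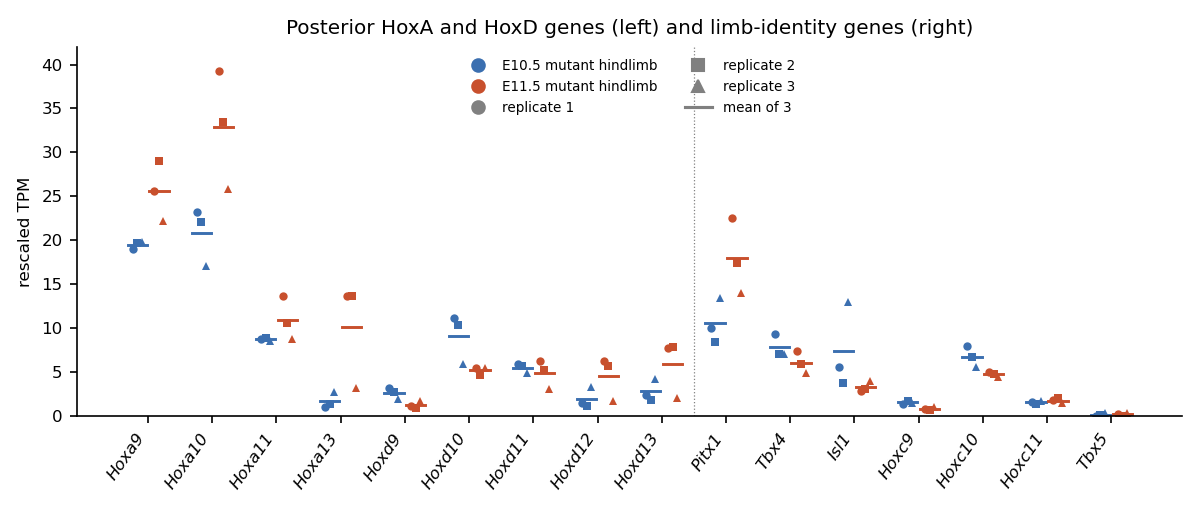
Rescaled TPM in each mutant hindlimb library for 9 posterior HoxA and HoxD genes (left) and 7 limb-identity genes (right); blue is E10.5, red E11.5, symbols are replicates and lines are means. For Hoxa13 and Hoxd13, 2 E11.5 libraries lie at 7.74 TPM or more and the third at 3.17 and 2.09 TPM.

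Signalling genes of the growing bud changed in both directions. In the Hedgehog list, 4 of 16 rose and 1 fell (25% and 6.25% against 18.9% and 18.4%), with a median of 0.28. Shh, the ligand of the posterior margin, went from 0.134, 0.112 and 0.269 TPM to 1.11, 1.15 and 0.800 TPM. Its receptor and target Ptch1 went from 3.19, 3.15 and 4.35 TPM to 8.60, 8.95 and 4.802 TPM. In neither gene do the stages overlap, but both calls were lost when any 1 of 4 libraries was dropped (at most 0.063 for the adjusted p of Shh and 0.0795 for that of Ptch1). The co-receptor Boc rose by 0.88 and the BMP antagonist Grem1, which links the Shh and ridge signals, by 0.88 (adjusted p = 0.0995 without the third E10.5 library). Gli3, whose repressor form counters Shh, fell from 14.1, 12.6 and 5.94 TPM to 5.06, 4.48 and 4.62 TPM. The third E10.5 library was already near the E11.5 level.

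In the FGF and ridge list 4 of 20 rose and 2 fell (20% and 10%), with a median of -0.05. Fgfr2, a receptor of the ridge and mesenchymal FGF loop, rose from 14.3 ± 3.76 to 22.5 ± 1.18 TPM, and the feedback inhibitor Spry2 from 3.24 ± 0.72 to 6.42 ± 1.96 TPM (SD, n = 3 each). Fgf18 was at 0.134, 0.0702 and 0.176 TPM and then at 2.23, 1.72 and 0.179 TPM, so its call rests on 2 libraries and was lost without either (adjusted p = 0.098 and 0.0774). Fgf10, the mesenchymal ligand that starts and keeps outgrowth, fell from 1.86, 1.54 and 0.920 TPM to 0.759, 0.813 and 0.739 TPM. Dusp6, a phosphatase induced by FGF signalling in the distal bud, fell from 54.7, 45.2 and 23.0 TPM to 23.4, 21.9 and 17.6 TPM, with an overlap through the third E10.5 library. The calls of Spry2, Fgf10 and Dusp6 were also lost without a single library (highest adjusted p 0.108, 0.201 and 0.0609).

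BMP pathway genes were on the higher side, with 9 of 21 rising and 0 falling (42.9% against 18.9% of all protein-coding genes) and a median of 0.41. The receptor Bmpr1a rose from 20.99 ± 1.56 to 34.2 ± 3.53 TPM, the signal transducer Smad1 from 4.29 ± 0.36 to 6.38 ± 0.57 TPM, and the target Id2 from 28.7 ± 5.72 to 42.8 ± 0.59 TPM (SD, n = 3 each). Bmpr1b, the receptor of cartilage condensations, rose by 0.54, the third E11.5 library at 0.746 TPM lying close to the highest E10.5 library at 0.705 TPM. Its call was lost without the second E11.5 library (adjusted p = 0.0998). Without the third E11.5 library 6 rose and 1 fell. In the Wnt list 7 of 28 rose and 5 fell, a median of 0.26. The Wnt inhibitor Nkd2 rose from 3.79, 4.07 and 2.84 TPM to 14.4, 14.1 and 6.32 TPM. The inhibitors Wif1 and Notum rose by 0.99 and 0.72, and the ectodermal ligand Wnt7b by 1.33. Lef1, a transcription factor of the pathway, fell from 9.16, 7.32 and 5.35 TPM to 3.78, 3.13 and 3.28 TPM.

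Of 20 tested retinoic acid and proximal genes 3 rose and 5 fell, with a median of -0.19. Aldh1a2, which synthesises the ligand, fell as given above. Rarb, a receptor gene that retinoic acid induces, fell from 10.8, 9.50 and 10.9 TPM to 2.09, 2.01 and 7.50 TPM, and the binding protein Crabp1 from 175, 168 and 104 TPM to 39.0, 36.4 and 70.6 TPM. Cyp26b1, which degrades retinoic acid in the distal bud, rose from 1.62, 1.39 and 1.22 TPM to 12.3, 9.90 and 3.44 TPM. In these 3 genes the third E11.5 library lay between its companions and E10.5. Shox2, a gene of the proximal skeleton, rose from 7.57 ± 1.62 to 28.7 ± 10.1 TPM (SD, n = 3 each).

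Of 30 tested limb mesenchyme factors, 10 rose and 6 fell, a median of 0.30. Tbx18 rose from 1.83, 2.59 and 1.30 TPM to 8.47, 10.53 and 5.32 TPM, and Meox2, which acts in limb muscle formation, from 1.91 ± 0.32 to 7.75 ± 3.25 TPM (SD, n = 3 each). Tfap2c and Twist1, a gene of early mesenchyme, fell by 0.89 and 0.79, and the distal factor Lhx2 by 0.86 (adjusted p = 0.139 without the first E10.5 library).

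In the connective tissue and tendon list 13 of 25 rose and 1 fell, 52.0% higher against a background of 18.9%, with a median of 0.65. Col1a2, a chain of fibrillar type I collagen, was at 5.67, 5.35 and 5.36 TPM at E10.5 and at 21.1, 19.7 and 20.1 TPM at E11.5. Replicates agree closely there, and the change was 1.72 ± 0.20 (adjusted p = 8.62e-06). Col12a1 rose from 0.319 ± 0.116 to 2.54 ± 0.68 TPM and Vcan, a large matrix proteoglycan, from 16.1 ± 2.54 to 41.1 ± 14.1 TPM (SD, n = 3 each). Scx, the transcription factor that marks tendon progenitors, rose from 0.338, 1.09 and 1.35 TPM to 7.89, 7.02 and 2.47 TPM. Leaving out the third E11.5 library, 12 of the list rose and 1 fell.

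In the cartilage list 4 of 15 rose and 0 fell, a median of 0.42. Sox9, the master factor of chondrogenesis, was at 0.695, 0.763 and 0.981 TPM and then at 3.84, 2.57 and 1.15 TPM. Its target Col2a1, the main collagen of cartilage, went from 4.20, 3.82 and 4.55 TPM to 17.6, 14.3 and 8.41 TPM. Both genes are ordered alike over the 3 E11.5 libraries, and no library overlaps the other stage. Col9a1 rose by 0.88 and Fgfr3 by 0.66. The calls of Sox9 and Col9a1 were lost without the first E11.5 library (adjusted p = 0.0579 and 0.0581), and that of Fgfr3 without any 1 library (0.0708 to 0.128). Without the third E11.5 library 6 rose and 1 fell. In wild-type hindlimb 10 of the same 15 genes rose and 1 fell, a median of 0.67. Between genotypes 2 of the 15 differed at an unadjusted p under 0.05 in the limma fit, against 2.33% of all protein-coding genes. After adjustment 0 did.

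Of 38 genes of the G1/S transition and replication, 5 rose and 14 fell (36.8% against 18.4%), with a median of -0.10. Cdk4, the kinase partner of D cyclins, was at 340, 348 and 338 TPM and then at 189, 185 and 202 TPM, a change of -0.83 ± 0.10 (adjusted p = 8.62e-06). The ribonucleotide reductase gene Rrm2 fell from 62.7 ± 10.996 to 30.2 ± 3.87 TPM and the origin-licensing gene Cdc6 from 13.0 ± 2.24 to 6.69 ± 1.46 TPM (SD, n = 3 each). Mcm5, a subunit of the replicative helicase, fell by 0.62. Of 42 G2/M genes, 9 rose and 14 fell, with a median of 0.07 that turned to -0.01 when protein-coding genes were summed anew. Those that fell included Birc5, by 0.58, and the spindle factors Tpx2 and Aurkb, by 0.70 each. Without the third E11.5 library 5 rose and 13 fell.

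Of 13 tested cell-cycle inhibitors 6 rose and 0 fell (46.2% higher against 18.9%), a median of 0.43. Cdkn1c, which encodes the growth-limiting inhibitor p57, was at 15.8, 17.8 and 23.1 TPM and then at 85.4, 85.9 and 41.8 TPM. Its change was 1.80 ± 0.24, with no overlap (adjusted p = 4.03e-05). Cdkn2d, Ccng2 and Btg2 rose by 0.57, 0.61 and 0.65, calls that were lost without the second E10.5 library (adjusted p = 0.107, 0.0678 and 0.106). Cdkn2a was listed at 0 in all 6 libraries.

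In the Lin28/let-7 list 0 of 20 tested rose and 10 fell, 50% against a background of 18.4%, with a median of -0.53 in the mutant and -0.57 in wild type. The count was the same without the third E11.5 library. Besides Lin28a, Myc fell from 6.56, 5.81 and 3.50 TPM to 0.928, 1.42 and 1.16 TPM, and Prtg from 6.98, 5.28 and 3.15 TPM to 0.743, 0.744 and 1.64 TPM. Trim71, itself a let-7 target in early embryos, fell by 0.80 and the chromatin gene Hmga1 by 1.06, with 56.9% of the Hmga1 50-mers in other transcripts. In the IGF list 7 of 18 rose and 3 fell, a median of 0.30. The fetal growth factor Igf2 was at 115, 109 and 183 TPM and then at 231, 223 and 218 TPM, and the neighbouring imprinted noncoding RNA H19 at 660, 630 and 961 TPM and then at 1285, 1242 and 1245 TPM. The third E10.5 library was the highest of its group in both. The adaptor Irs1 rose by 1.03.

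In the glycolysis and hypoxia list 7 of 26 rose and 8 fell, a median of -0.12. Among those that fell were the glycolytic enzyme genes Pgam1, from 114 ± 17.9 to 56.0 ± 7.75 TPM and Pkm, from 349 ± 41.1 to 205 ± 11.6 TPM (SD, n = 3 each). Eno1 and Pgk1 fell by 1.46 and 0.74. These 4 share 25.8% to 54.0% of their 50-mers with other genes. The glucose transporter Slc2a3 rose from 8.69, 8.33 and 12.2 TPM to 32.5, 32.3 and 31.1 TPM. Leaving out the third E11.5 library, 4 of the list rose and 9 fell, and without both libraries numbered 3 the counts were 3 and 10.

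Of 33 tested p53 targets 6 rose and 4 fell, 18.2% and 12.1% against 18.9% and 18.4%, with a median of 0.18. Pmaip1, the BH3-only gene Noxa, rose from 0.412, 0.407 and 0.361 TPM to 6.61, 6.02 and 2.07 TPM, while the nuclease gene Aen fell from 13.0 ± 2.16 to 5.68 ± 0.85 TPM (SD, n = 3 each). Plk2 fell by 0.49. Of 29 apoptosis genes 6 rose and 3 fell, a median of 0.08. Besides Pmaip1 the BH3-only gene Bmf rose, by 1.13, and the survival gene Bcl2l1, by 0.54, whereas Casp2 fell by 0.51. Of 19 tested genes of the integrated stress response 4 rose and 6 fell, a median of -0.07. Its central factor Atf4 fell from 34.1, 33.3 and 31.4 TPM to 20.3, 16.03 and 18.04 TPM (-0.83 ± 0.10), and Ddit4, an mTOR inhibitor, rose from 2.15 ± 0.36 to 7.47 ± 1.99 TPM (SD, n = 3 each).

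The machinery that uses U11 was measured as well. Of 18 tested proteins of the minor spliceosome 6 rose and 3 fell in mutant hindlimb, and 5 rose and 4 fell in wild-type hindlimb. In the mutant these were 33.3% and 16.7%, against 18.9% and 18.4%, with a median of -0.10. Rnpc3, the 65K protein that bridges U11 and U12, rose from 9.62, 9.06 and 9.75 TPM to 15.9, 18.95 and 14.2 TPM, and Rbm41 rose by 0.61. Pdcd7, the 59K protein of the U11/U12 particle, fell from 2.85 ± 0.09 to 1.80 ± 0.08 TPM (SD, n = 3 each). Prpf8, a core protein of both spliceosomes, fell from 31.2, 30.8 and 15.99 TPM to 14.9, 12.4 and 12.8 TPM. Of 53 tested genes that contain minor introns, 5 rose and 17 fell, 9.43% and 32.1% against 18.9% and 18.4%. Their median was -0.19 in mutant hindlimb and -0.17 in wild-type hindlimb, where 6 rose and 18 fell. The transcription factor gene E2f6 fell from 10.7 ± 0.55 to 6.58 ± 0.72 TPM and the chromatin remodelling subunit Actl6a from 46.6 ± 3.24 to 28.5 ± 1.38 TPM (SD, n = 3 each). Total levels per gene do not show whether a minor intron was spliced.

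**Figure D4:**
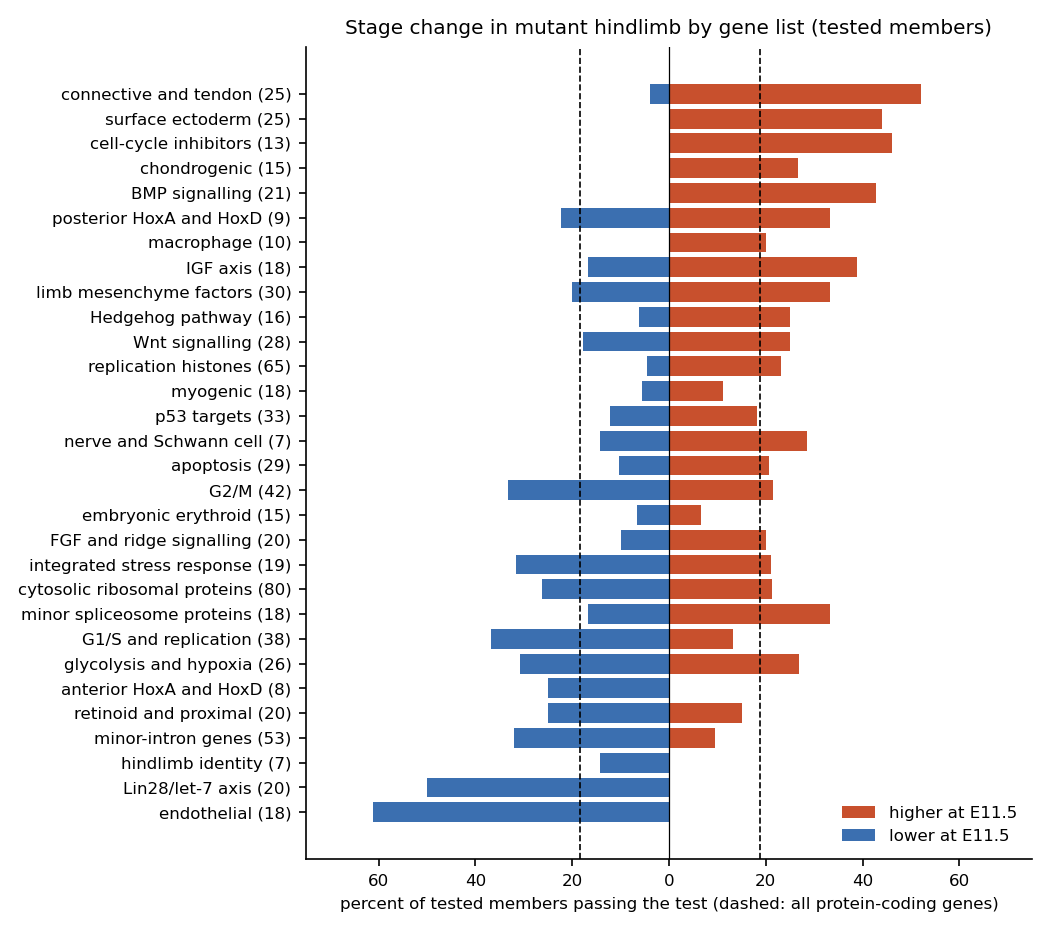
Percent of the tested members of each gene list that passed the test as higher (red, right) or lower (blue, left) at E11.5 in mutant hindlimb, ordered by median change, with the number tested in brackets; dashed lines are the shares over all protein-coding genes, 18.9% and 18.4%. Connective tissue and tendon genes lie at 52.0% higher and endothelial genes at 61.1% lower.

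In bulk samples fewer cells of a type and less RNA per cell cannot be told apart. Of 18 tested endothelial genes 0 rose and 11 fell (61.1% against 18.4%), with a median of -0.70, and 11 fell without the third E11.5 library too. The summed level of all 21 was 113, 95.97 and 75.2 TPM at the earlier stage and 38.8, 36.4 and 59.7 TPM at the later. Cd34 went from 13.3, 13.2 and 11.1 TPM to 4.29, 4.47 and 5.87 TPM, and Aplnr, the apelin receptor, from 7.51, 6.45 and 3.81 TPM to 1.37, 1.17 and 2.28 TPM. The junction gene Cldn5 fell by 1.08. Among wild-type hindlimb libraries 8 of the 18 fell, a median of -0.55. In mutant forelimb the median was 0.18.

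Of 25 tested surface ectoderm genes 11 rose and 0 fell (44.0% against 18.9%), a median of 0.52 in mutant hindlimb and of 0.04 in wild-type hindlimb, where 6 rose and 1 fell. In mutant hindlimb 8 rose and 0 fell when the third E11.5 library was left out. The summed level of the 26 listed genes was 68.5, 85.6 and 146 TPM at E10.5 and 155, 161 and 164 TPM at E11.5. Grhl3, a factor of epidermal differentiation, rose from 0.896, 1.35 and 2.15 TPM to 3.5999, 4.32 and 4.95 TPM. The third E10.5 library was the highest of its group. Of the 25, 3 differed between genotypes at an unadjusted p under 0.05 and 0 after adjustment. Their median stage change in mutant forelimb was -0.28. The part of ectoderm content in the rises of Krt14 and Krt5 was not tested.

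Of 15 embryonic erythroid genes 1 rose and 1 fell: the globin Hbb-y, from 1079, 814 and 1026 TPM to 2158, 2405 and 1398 TPM, and the transferrin receptor gene Tfrc, by 0.75. The Hbb-y call was lost without the second E11.5 library (adjusted p = 0.0825). Of 4 adult globin genes, all with 20% or more of their 50-mers shared, 1 rose and 0 fell. The summed level of the embryonic erythroid genes lay between 1656 and 2329 TPM at the earlier stage and between 2404 and 3350 TPM at the later. Of 10 tested macrophage genes 2 rose, Fcgr3 and Lgmn, by 0.56 and 0.33, and 0 of the 10 did without the third E11.5 library. Of 18 muscle genes 2 rose and 1 fell. Myf5, which starts the myogenic program, was at 0.0427, 0 and 0.0151 TPM and then at 1.12, 1.34 and 0.419 TPM. Des, which encodes the muscle filament desmin, fell from 1.81, 1.11 and 2.07 TPM to 0.197, 0.101 and 1.04 TPM. Of 7 tested nerve and Schwann cell genes Dcx and Erbb3 rose, by 1.13 and 0.60, and Ngfr fell by 1.01. None of the listed markers of these classes was at 0 in all 6 libraries.

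Of 80 tested ribosomal protein genes 17 rose and 21 fell, a balance that turned to 23 and 15 without both libraries numbered 3, and 43 of the 80 share 20% or more of their 50-mers with other genes. Of 65 replication histone genes 15 rose and 3 fell, and 52 of those 65 are shared in the same degree. Of 15 tested mitochondrially encoded RNAs 2 rose, the ribosomal mt-Rnr1 and mt-Nd6, by 0.88 and 1.00, the first of which was lost without the first E10.5 library (adjusted p = 0.207). Of 18 tested structural RNAs 4 rose and 5 fell. Of 5 sex-linked genes 0 passed, and 2 did without the third E11.5 library.

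Rpl28, a protein of the large ribosomal subunit, fell in mutant hindlimb. It was at 65.1, 77.8 and 174 TPM at E10.5 and at 11.6, 12.1 and 10.7 TPM at E11.5, a change of -2.96 ± 0.58 (adjusted p = 0.000816). In wild-type hindlimb it was at 55.3, 79.3 and 328 TPM and then at 99.7, 105 and 93.2 TPM. Mutant forelimb at E11.5 held 14.6, 13.6 and 15.99 TPM. The genotype difference of the stage change in hindlimb was -2.77, with an unadjusted p of 0.00301 and an adjusted p of 1 in the limma fit, so it did not pass.

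Wild-type hindlimb gives the same stage comparison in Cre- embryos. There 2541 protein-coding genes rose and 2001 fell, 43% of those tested. Of the mutant calls 78.8% were also called in wild type in the same direction, and of the wild-type calls 68.3% were also called in the mutant. Among the 3104 genes called in both, 0 moved in opposite directions. Across the 10570 genes the 2 stage changes correlated with Pearson r = 0.887 and Spearman rho = 0.884, as a description over genes that are not independent replicates and that share the same difference in read trimming and library content between stages. Lin28a fell by 2.70 in wild type and by 2.58 in the mutant. Hoxa13 rose by 2.58 in wild type and by 1.89 in the mutant, and Hoxd13 rose by 1.96 in wild type where the mutant value of 0.76 did not pass.

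The difference between genotypes was tested gene by gene. For 0 of 10570 protein-coding genes (0%) did the stage change differ between mutant and wild-type hindlimb in the limma fit, while 246 genes, 2.33%, had an unadjusted p under 0.05. The median standard error of this difference was 0.22 on the log2(TPM + 1) scale, which limits what 3 libraries a group could detect. Over all 12118 genes 1 passed (0.00825%), in the positive direction, and it was listed at 0 in all 6 mutant hindlimb libraries. For Hoxd13 the genotype difference was -1.20 (unadjusted p = 0.0988). Among protein-coding genes, leaving out predicted genes and clone names, those with the smallest p were Kcne3, Stfa1, Rfx5, Slc16a7 and Kctd3. Kcne3, a potassium channel subunit, differed by 0.78 and was at 2.22 ± 0.32 and 2.69 ± 0.20 TPM in the mutant (SD, n = 3 each). Slc16a7, a monocarboxylate transporter, rose by 0.66 in the mutant and differed by 0.11 in wild type. All 5 had an adjusted p of 1.

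**Figure D5:**
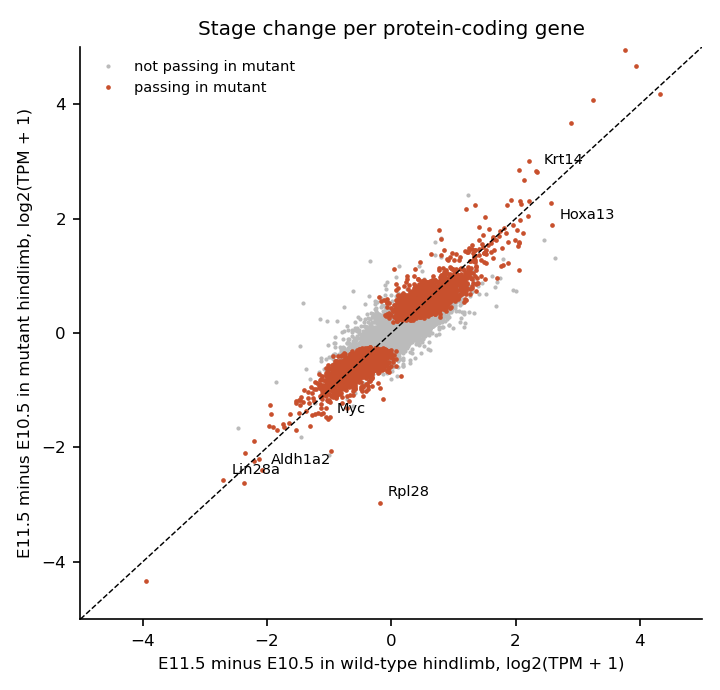
Stage change (E11.5 minus E10.5, log2(TPM + 1)) of each tested protein-coding gene in mutant hindlimb (vertical) against wild-type hindlimb (horizontal); red points passed the test in the mutant, the dashed line marks equal change, and 5 genes lie outside the axes. Most genes lie along the line, and Rpl28 lies far below it at -2.96 in the mutant.

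Against mutant forelimb the stage change differed in 2 protein-coding genes, 0.0189% of those tested, 1 in each direction (0.00946%). Over all genes mutant forelimb had 36.3% called between the stages, and the limb difference passed in 4 genes, 0.033%, 2 in each direction (0.0165%). The 2 that are not annotated as protein-coding were listed at 0 in all libraries of 1 or more of the groups compared. Bnip3, a hypoxia-induced mitophagy receptor, rose in hindlimb from 12.1, 13.2 and 10.9 TPM to 16.3, 17.6 and 20.04 TPM. In mutant forelimb it went from 21.8, 21.9 and 19.4 TPM to 10.7, 11.4 and 10.997 TPM, a difference of 1.41 ± 0.22 (adjusted p = 0.0149). Its rise in hindlimb alone was lost without the third E11.5 library (adjusted p = 0.0524). Eda2r, a p53-induced receptor of ectodysplasin, stayed under 1.1 TPM in all 6 hindlimb libraries and went from 1.07, 1.28 and 1.22 TPM to 7.71, 6.26 and 3.75 TPM in mutant forelimb. Its difference was -1.83 ± 0.22 (adjusted p = 0.000596). In all, 1329 protein-coding genes, 12.6%, had an unadjusted p under 0.05. Without the third E10.5 mutant hindlimb library 102 genes passed and without the third E11.5 mutant forelimb library 8, so this count depends on single libraries.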

How the data were processed

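Total RNA of 24 limb bud libraries was sequenced by the authors, and the 6 mutant hindlimb libraries are compared here. The authors deposited 1 TPM value for each gene symbol, and these add up to the same total in every library. HISAT2 and mm10 are named in the submitters' processing notes. The tool that made the TPM values, its annotation and its strand setting are not given in the sources used. Read depth cannot be recovered from TPM, and the error of low values is not known. Gene types, coordinates and the printed sequences come from GENCODE M21 (GRCm38), in which 36287 of 38019 symbols were found.

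Libraries were brought to 1 common median over 3518 genes with 5 TPM or more in all libraries. Values were analysed as log2(TPM + 1), keeping 12118 genes with 1 TPM or more in at least 3 libraries. All 24 libraries, in 8 groups, entered 1 fit by limma 3.58.1 under R 4.3.3, using its trend option (16 residual degrees of freedom). Two-sided p-values were adjusted by Benjamini-Hochberg over all genes, and 0.05 was the threshold. The fit was also run on simulated data with few changed genes and independent noise. Shifts as broad as those called here and outlying libraries were not simulated, so the rescaling was not tested under them. Rnu11 and Rnu12 were also compared by exact permutation tests. Sharing between genes was measured as the percent of a gene's 50-mers found in transcripts of other genes.

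The comparison, its members and the 35 gene lists were chosen with earlier results of these data known. Lists are described by counts and medians, without a list test. Genes were named by rule: Rnu11, and the 10 largest rises and falls that passed without overlap and with a mean of 5 TPM or more in the higher group. To these were added up to 5 members per list that passed, those of smallest adjusted p, all identity and posterior Hox genes, and the genes leading the genotype and limb differences. Prrx1 and the multicopy RNAs other than Rnu1b2, Rn7s1 and Rnu1b1 were chosen after their values were seen. So were the 2 genes of the closing section that are not annotated as protein-coding. Some genes that the rule names are not reported here. Alternatives were other scales, pseudocounts, filters and sets of libraries, a replicate block, Xist status as a covariate, and leaving out each library. Leaving out both libraries numbered 3, genes under 20% shared 50-mers, and summed copies were added after seeing the data.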

Additional observations from a re-analysis of the deposited data

Results flagged for a closer look

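The fit gave 4 genes whose stage change differed from that in another group. For 2 of them, AC154540.1 and Gm24500, the values are a description only, since each passed the filter on low values through the groups where it is high and is compared with libraries listed at 0. AC154540.1, a symbol without a match in the annotation used here, was listed at 0 in all 6 mutant hindlimb libraries. It was at 49.1, 219 and 34.5 TPM in E10.5 wild-type hindlimb and at 129, 287 and 227 TPM in E10.5 mutant forelimb, and at 0 in E11.5 libraries of both. The fitted differences, 6.19 against wild-type hindlimb and 7.68 against mutant forelimb on the log2(TPM + 1) scale, thus hold no change in mutant hindlimb and depend on the pseudocount.

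Bnip3 differed between mutant hindlimb and forelimb by 1.41 and Eda2r by -1.83, with the values given above. Gm24500, annotated as a small nucleolar RNA gene on chromosome 15, was at 27.2, 21.5 and 14.4 TPM in E10.5 mutant hindlimb and listed at 0 in all 3 E11.5 libraries. In mutant forelimb it was listed at 0 at both stages, and the fitted difference of -4.42 depends on the pseudocount as well. The cause of these differences was not tested.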

How the results depend on the processing

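On the deposited scale 96 protein-coding genes were higher and 5601 lower in mutant hindlimb, and 5778 differed in stage change between the limbs, as each library's scale then enters every value. Genes whose sign turned there were Pitx1 at -0.088, Hoxc11 at -0.45, Tbx5 at -0.028, Hoxa9 at -0.45, Hoxa10 at -0.20, Hoxa11 at -0.50, Fgfr2 at -0.16, Bmpr1a at -0.15, Id2 at -0.25, Smad1 at -0.25, Cdkn2d at -0.060, Ccng2 at -0.12 and Bcl2l1 at -0.23. The same held for Rbm41 at -0.094, Rnpc3 at -0.073, H19 at -0.083, Igf2 at -0.093, Lgmn at -0.41, Kcne3 at -0.41, Kctd3 at -0.49, Bnip3 at -0.27 and Prrx1 at -0.23. Leaving out 1 library gave 2545 to 3824 calls, with 1234 to 1943 higher. Over those fits Tbx5 ranged from -0.065 to 0.16 and Hoxd11 from -0.36 to 0.048, neither of which had passed. The genotype difference passed in 1 protein-coding gene without a filter. The limb difference passed in 1 gene when protein-coding genes were summed anew and in 1 at a filter of 5 TPM. It ranged from 1 to 102 genes when 1 library was left out, the highest without the third E10.5 mutant hindlimb library, and was 52 without both mutant hindlimb libraries numbered 3. The cause was not tested. Of 131 named genes that passed, 104 kept the call under all alternatives run other than the deposited scale, and 0 changed sign under those.

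Same-numbered mutant hindlimb libraries of the 2 stages did not deviate together (r = 0.003, 0.040 and -0.006). For same-numbered hindlimb and forelimb mutant libraries of 1 stage r was 0.097, 0.166 and 0.175 at E10.5 and -0.001, 0.256 and 0.184 at E11.5, not over 0.1 in every pair. For differently numbered ones r lay between -0.236 and 0.108 at E10.5 and between -0.269 and 0.084 at E11.5. The labels do not tie the numbers to embryos, so they were not taken as pairs. With the replicate number as a block 3935 genes were called, 1975 higher and 1960 lower, and of the named genes Fgf10 lost its call (adjusted p = 0.0526). The limb difference then passed in 3 protein-coding genes against 2. Depth is unknown, and low values carry an error that TPM does not show.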
